A study of Mus musculus with 12 samples.

Results

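Replication-dependent histone genes, the clustered genes for linker histone H1 and core histones H2A, H2B, H3 and H4, were examined in resting and stimulated mouse CD4+ T cells. They were taken as rows of the deposited expression table whose gene symbol, in its older or its current form, begins with Hist, a cluster number from 1 to 4 and the letter h. The table listed 62 such genes among 17203: 5 for H1, 16 for H2A, 18 for H2B, 11 for H3 and 12 for H4. Only 7 carried the older symbol in the table, and the other 55 were recognised by matching each row's coordinates to the gene annotation. Most lie in the large histone cluster on chromosome 13, and the others in smaller clusters on chromosomes 3, 11 and 6. The gene at H2bu1-ps is annotated as a processed pseudogene.

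Nucleosomes hold DNA around a core of H2A, H2B, H3 and H4, and H1 binds the linker DNA between them. When a cell copies its DNA in S phase it needs new histones, and the replication-dependent genes supply them from many near-identical copies without introns. Their mature messages usually end in a conserved stem-loop in place of a poly(A) tail. The stem-loop binding protein SLBP holds this end through processing, translation and decay. Some of these genes can also give a longer, polyadenylated message, which is known mainly from cells that have stopped dividing. Replacement histones, such as H2A.Z and H3.3, come from ordinary polyadenylated messages made outside S phase as well.

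RNA came from CD4+ T cells of C57BL/6 mice in 4 groups of 3 libraries. Unstimulated cells were fresh and had no activation. CD3 cells spent 72 h on plate-bound antibody to CD3, part of the T cell receptor complex. CD3_CD28 cells had, for 72 h, plate-bound anti-CD3 with soluble antibody to CD28, a receptor that adds a costimulatory signal. CD3_CD28_ICOS cells had, over the same 72 h, antibodies to CD3, CD28 and ICOS, a further costimulatory receptor, all labelled soluble, so they differ from the CD3_CD28 cells in the form of anti-CD3 as well as in the antibody to ICOS. All stimulated cells were kept in RPMI with 10% serum and the Unstimulated cells were not cultured, so stimulation and culture cannot be told apart. The series' design text speaks of transduced cells, which no sample label names. No label says that replicates are separate animals or separate cultures, and the p-values cover only how far these libraries differ from each other, a spread that may be technical.

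Whether the libraries were made by poly(A) selection or by removal of ribosomal RNA is not given in the sources used here. Poly(A) selection would discard most mature messages of these genes. The values below are therefore levels of histone RNA that reached the libraries, not of all histone message in the cells. Levels were low: only 4 of the 62 genes (H1f2, Hist1h2ap, H2aw and H2bc21) reached 10 CPM, reads per 1e6 reads assigned to genes, in at least 3 libraries. In bulk RNA, fewer cells that make a message and less message per cell cannot be told apart.

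The stem-loop is the shared element that sets these messages apart, so it is shown for members the results turn on. In each, capitals mark the 16 bases of the loop, 2 arms of 6 bases around 4 loop bases, on the gene's strand in mm10.
Hist1h2ap: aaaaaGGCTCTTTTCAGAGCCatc
H2ac11: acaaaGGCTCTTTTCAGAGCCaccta
H1f2: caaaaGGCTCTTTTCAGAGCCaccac
H2aw: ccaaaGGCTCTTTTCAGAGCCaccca
H3c3: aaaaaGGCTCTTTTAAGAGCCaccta
H4c9: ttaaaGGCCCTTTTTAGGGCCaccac
H4c4: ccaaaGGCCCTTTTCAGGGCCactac
A stem-loop of this form lay within the first 100 bases after the stop codon in 40 of the 47 members with at least 50 annotated bases there (85.1%). Among other protein-coding genes 4 of 20624 (0.0194%) had one. The form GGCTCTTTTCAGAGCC, as in Hist1h2ap, was found in 24 genes for H1, H2A, H2B and H3. The forms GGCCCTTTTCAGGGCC in 6 genes, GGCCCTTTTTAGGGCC in 2 and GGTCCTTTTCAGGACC in 2 were found only in H4 genes, among the 40 with a loop.

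Where the annotated transcript ends differs between these members. The Hist1h2ap transcript stops 3 bases after the loop, whereas H1f2 runs on for 840 bases and H2aw for 1643. H2bc21, with 2192 annotated bases after its stop codon, and H2bc4, with 742, have no stem-loop in the first 100 of them. For each gene only the coding transcript with the most bases after the stop codon was searched, so a loop in another transcript would be missed. An annotated end shows where a transcript was once recorded to stop and not which end was present in these cells.

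Promoters of histone genes are compact and often shared by a pair of genes read away from each other. H2ac11 and H2bc11, both among the genes that rose most under anti-CD3, form such a pair. The 120 bases before each start site in RefSeq (GRCm38.p6) are given on the gene's strand, with the CCAAT box and its reverse complement ATTGG in capitals, next to those of H2aw and H1f2, which fell. In H2aw the capitals also mark the octamer, read as ATGCAAAT on this strand.
H2ac11, chr13:22042950-22043069, minus strand: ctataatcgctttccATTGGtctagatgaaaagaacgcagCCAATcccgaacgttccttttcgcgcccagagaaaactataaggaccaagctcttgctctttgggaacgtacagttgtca
H2bc11, chr13:22043078-22043197, plus strand: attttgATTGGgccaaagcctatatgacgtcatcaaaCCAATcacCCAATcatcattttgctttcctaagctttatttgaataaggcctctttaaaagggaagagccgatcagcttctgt
H2aw, chr11:58954565-58954684, plus strand: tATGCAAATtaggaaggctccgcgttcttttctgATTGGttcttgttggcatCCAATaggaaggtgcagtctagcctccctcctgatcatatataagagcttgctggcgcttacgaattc
H1f2, chr13:23738687-23738806, plus strand: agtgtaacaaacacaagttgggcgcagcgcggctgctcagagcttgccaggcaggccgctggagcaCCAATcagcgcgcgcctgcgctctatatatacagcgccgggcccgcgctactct
Of the 62 genes, 49 were found in the RefSeq promoter table, and 250 bases before the start were searched on both strands. CCAAT was present in 5 of 5 H1, 13 of 13 H2A, 12 of 12 H2B, 8 of 9 H3 and 3 of 10 H4 promoters, against 33.8% of 32851 promoters of all genes. ATTTGCAT, the octamer, was present in 6 of 13 H2A and 6 of 12 H2B promoters and in 0 of the H1, H3 and H4 promoters, against 1.6% of all. TATAAA was present in 4 of 5 H1, 4 of 13 H2A, 6 of 12 H2B, 4 of 9 H3 and 4 of 10 H4 promoters, against 12.4% of all. These matches are descriptions of the letters, and genes on both sides of the results below carry CCAAT.

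Depth was estimated at 11.4 to 37.5 (in units of 1e6 assigned reads) per library. T cell markers summed to 2421 to 4642 CPM in every library. One library stood apart in a way that bears on these genes. In CD3_CD28 replicate 1 the ribosomal RNA gene CT010467.1 took 11.8% of the reads, against 1.26 to 3.2% elsewhere. The sum of 5 other RNAs without a poly(A) tail was 892 CPM there and 31.2 to 101 CPM in the other 11 libraries, and 20 small nuclear and nucleolar RNAs summed to 63.0 CPM against 0.864 to 11.5. Of the 40 histone genes with a mean of 0.5 CPM or more over the group's 3 libraries, 30 were highest in this one (75%), compared with 14.1% of all genes at that level. That mean includes replicate 1, so a low gene can pass through its value there, which favours this count. H4c6, at 1.949, 0.358 and 0.3555 CPM in replicates 1 to 3, passed in this way. Counts of calls on every gene and the sums by type are given with and without CD3_CD28 replicate 1 where CD3_CD28 enters them. Unstimulated replicate 3 was far above its group for H1f2, and values without it are given for several of the counts and calls that changed.

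**Figure D1:**
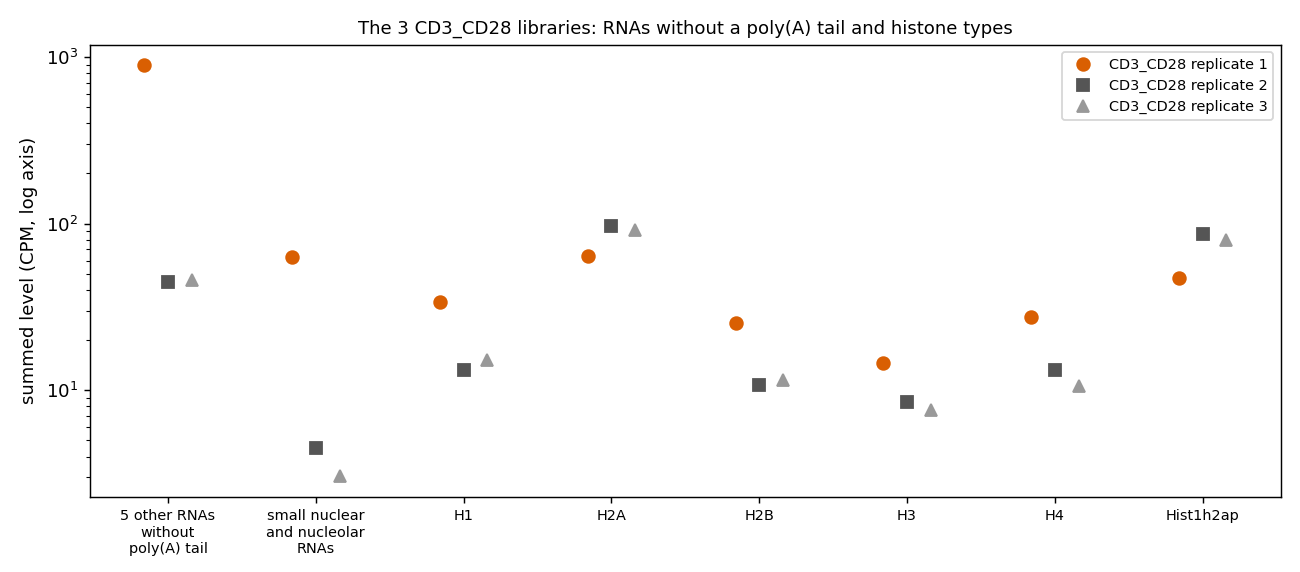
Summed level in CPM on a log axis in each of the 3 CD3_CD28 libraries for 5 other RNAs without a poly(A) tail, 20 small nuclear and nucleolar RNAs, the 5 histone types and Hist1h2ap. Replicate 1 is the highest for both groups of non-histone RNA and for H1, H2B, H3 and H4, and the lowest for H2A and for Hist1h2ap.

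By type, H2A and H3 had their highest sums in the CD3 group, while H1 and H2B had theirs in Unstimulated cells. H2A summed to 37.5 ± 5.28 CPM (SD, n = 3) in Unstimulated, 167 ± 11.03 in CD3, 83.8 ± 17.6 in CD3_CD28 and 118 ± 25.7 in CD3_CD28_ICOS. Hist1h2ap alone made up 17.5 to 26.4% of the H2A sum in Unstimulated libraries and 74.5 to 89.7% in the stimulated ones. Without it the order changed: the other 15 H2A genes summed to 28.7 CPM in Unstimulated, 22.5 in CD3, 12.4 in CD3_CD28 and 21.7 in CD3_CD28_ICOS. That order leaned on H2aw, which averaged 15.15 CPM in Unstimulated, 3.526 in CD3, 1.853 in CD3_CD28 and 5.158 in CD3_CD28_ICOS. It does not give the direction of the other H2A genes. Without CD3_CD28 replicate 1 the CD3_CD28 means were 93.8 CPM for H2A and 10.5 without Hist1h2ap.

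H3 genes summed to 2.68 ± 0.993 CPM (SD, n = 3) in Unstimulated, 17.5 ± 2.86 in CD3, 10.3 ± 3.83 in CD3_CD28 and 9.08 ± 3.16 in CD3_CD28_ICOS. Every stimulated library was above every Unstimulated one, the closest being 5.60 CPM in CD3_CD28_ICOS replicate 3 and 3.83 in Unstimulated replicate 3. The CD3_CD28 mean for H3 was 8.05 CPM without replicate 1. H4 genes summed to 9.73 ± 1.30, 17.0 ± 3.52, 17.1 ± 9.05 and 9.25 ± 2.45 CPM in the same order. The CD3_CD28 mean for H4 rested on replicate 1, at 27.4 CPM, and was 11.9 over the other libraries of the group.

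H2B genes summed to 33.3 ± 0.961 CPM (SD, n = 3) in Unstimulated, 28.0 ± 4.84 in CD3, 15.9 ± 8.26 in CD3_CD28 and 20.2 ± 3.21 in CD3_CD28_ICOS. Unstimulated and CD3 overlapped, at 32.14 CPM in Unstimulated replicate 3 and 32.7 in CD3 replicate 3. Most of the Unstimulated H2B sum came from H2bc21, H2bc4 and H2bu2, which averaged 14.48, 9.808 and 4.025 CPM there. In CD3 they averaged 3.665, 3.418 and 1.339 CPM, so the H2B sum does not give the direction of the other H2B genes. H1 genes summed to 66.0 ± 56.7, 28.6 ± 5.42, 20.7 ± 11.5 and 17.3 ± 3.63 CPM. The Unstimulated mean of H1 was 33.3 CPM without replicate 3, which stood at 131.5. The H1 sum followed 1 gene: without H1f2 it was 7.50 CPM in Unstimulated, 21.03 in CD3, 14.2 in CD3_CD28 and 9.83 in CD3_CD28_ICOS. Over all 62 genes the sum was 149 ± 61.0, 258 ± 26.0, 148 ± 15.4 and 174 ± 37.7 CPM. With Hist1h2ap and H1f2 both left out it was 81.9 ± 3.44, 106 ± 14.9, 69.9 ± 30.8 and 70.0 ± 14.4 CPM, and CD3 libraries lay above all Unstimulated and CD3_CD28_ICOS ones while the other groups overlapped. Without CD3_CD28 replicate 1 the CD3_CD28 means were 11.2 CPM for H2B, 14.1 for H1, 10.4 for H1 without H1f2, 139 for all 62 genes and 52.1 with Hist1h2ap and H1f2 left out.

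**Figure D2:**
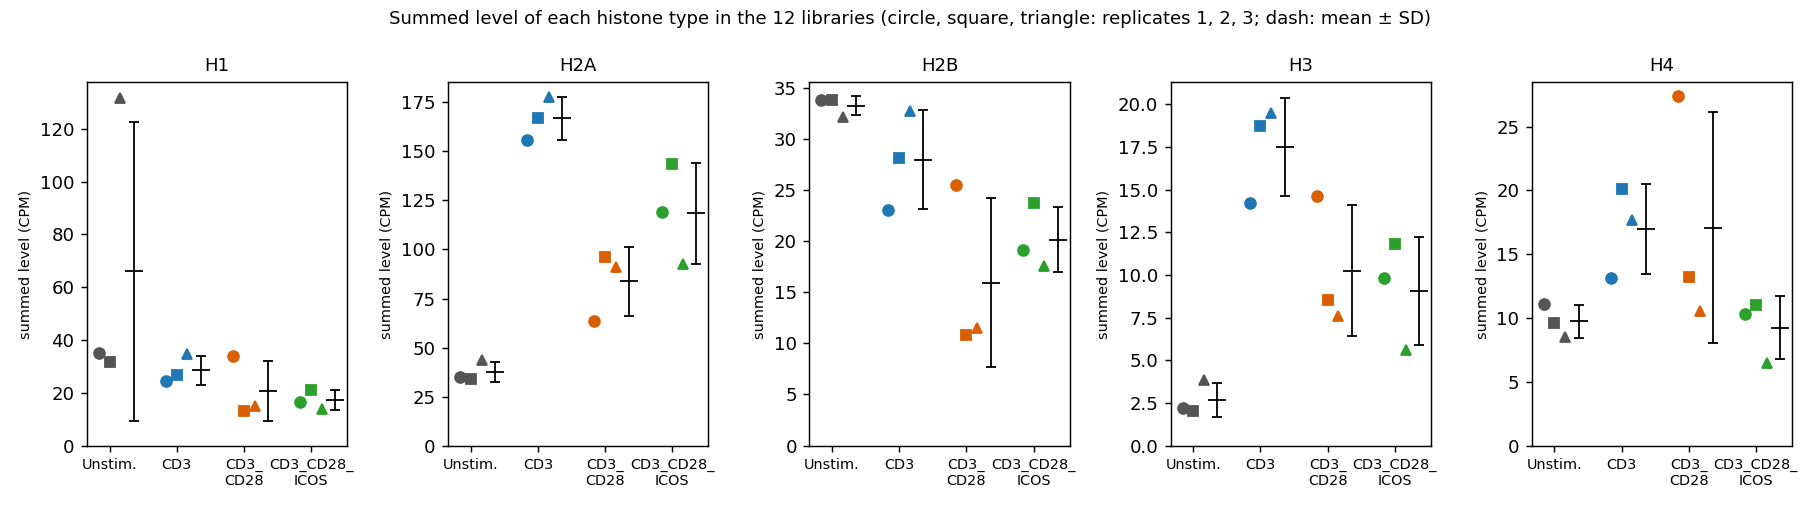
Summed CPM of the genes of each histone type in each of the 12 libraries, 1 panel per type, with the mean and SD of each group of 3. The H2A and H3 sums are highest in CD3, at 167 and 17.5 CPM on average, and the H1 sum has 1 high Unstimulated library at 131.5 CPM.

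CD3 against Unstimulated asks how these genes differ after anti-CD3 alone. More histone genes rose than fell in each of the 5 types, though for H2B the share that rose was near that of all genes. A smaller set led by H1f2, H2aw, H2bc21 and H2bc4 fell. Of the 4 genes tested at 10 CPM or more, 1 rose and 3 fell, where 43.6% of the 9826 genes tested rose and 26.3% fell. The 3 that fell passed this filter through the Unstimulated libraries, where they are high (H2aw and H2bc21 reached 10 CPM in no stimulated library, H1f2 in 1), which favours a fall, so this count supports nothing by itself. With every listed gene kept, 32 of the 62 rose and 6 fell, against 33.5% and 26.0% of 17203 genes. Without Unstimulated replicate 3 the counts were 26 and 5, against 30.6% and 26.0%. The median log2 change, on log2(CPM + 1), was 0.50 over the 62 and 0.06 over all genes. A gene was called at an adjusted p under 0.05 in a limma fit over all 12 libraries. The pseudocount of 1 CPM understates the change of genes near or under that level. With no test involved, 39 of the 62 lay higher in all CD3 libraries than in any Unstimulated one and 9 lay lower, against 37.8% and 28.9% of all genes.

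H2A genes called higher under CD3 were 8 of 16 (50%, against 33.5% of all genes), led by Hist1h2ap (chromosome 13, 21833026 to 21833507, minus strand, mm10). Hist1h2ap stood at 9.21, 5.95 and 11.2 CPM in Unstimulated replicates 1 to 3, and at 134, 145 and 154 CPM in those of CD3. In CD3_CD28 it stood at 47.4, 86.4 and 80.1 CPM, and in CD3_CD28_ICOS at 98.3, 118 and 74.2 CPM. Every stimulated library was far above every Unstimulated one, and every CD3 library was above all other stimulated ones. Its log2 change in CD3 against Unstimulated was 3.93 ± 0.25 (SE; adjusted p = 2.94e-08). Per kilobase of annotated exon it reached 299.6 CPM in CD3, against 18.2 in Unstimulated. The variant histone genes H2ax and H3f3b had 108.4 and 87.1 CPM per kilobase in CD3. Of the 50-base windows of Hist1h2ap, 93.07% also occur in another gene, most often in Hist1h2ao. Hist1h2ao itself averaged 0.267 CPM in Unstimulated and 1.54 in CD3. How shared reads were assigned is not known, so reads may have been divided between copies and the value of this 1 gene is uncertain.

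H2ac11, in the pair of genes whose promoters are printed above, stood at 0.119, 0 and 0.1597 CPM in Unstimulated and at 3.87, 3.11 and 2.65 CPM in CD3, with no overlap (log2 change 1.94 ± 0.21 SE, adjusted p = 1.90e-06). H2ac4 rose by 1.75, H2ac10 by 1.10, H2ac13 by 1.03, H2ac8 by 1.00 and Hist1h2ao by 0.94 on the log2 scale. Only 2 H2A genes fell, H2aw and H2ac18. Without Unstimulated replicate 3 the H2A counts were 7 higher and 1 lower, against 30.6% and 26.0% of all genes. H2aw (chromosome 11, 58954685 to 58956830, plus strand) stood at 14.8, 14.7 and 15.9 CPM in Unstimulated and at 3.54, 3.29 and 3.75 CPM in CD3. The groups were wide apart (log2 change -1.84 ± 0.17 SE, adjusted p = 3.71e-07). H2aw begins at the same base and on the same strand as Trim17, with which it shares 31.47% of its 50-base windows. Trim17 itself stood at 0 to 1.45 CPM in the 12 libraries. H2ac18 had 6.24, 4.53 and 8.07 CPM in Unstimulated and 3.54, 2.87 and 4.28 in CD3 (log2 change -0.66 ± 0.25 SE, adjusted p = 0.0362), and 89.39% of its windows occur in other genes.

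Among H2B genes 6 of 18 rose (33.3%) and 3 fell (16.7%), against 33.5% and 26.0% of all genes, so the share that rose was at the background. H2bc11, the partner of H2ac11, stood at 0.136, 0.0825 and 0.144 CPM in Unstimulated and at 2.70, 6.21 and 4.23 CPM in CD3 (log2 change 2.21 ± 0.28 SE, adjusted p = 9.91e-06). H2bc12 rose by 1.99, H2bc14 by 1.39 and H2bc3 by 1.33. The genes that fell were H2bc21, H2bc4 and H2bu2. H2bc21 (chromosome 3, 96221119 to 96223738, plus strand) stood at 15.6, 17.6 and 10.3 CPM in Unstimulated and 2.46, 3.11 and 5.43 CPM in CD3 (log2 change -1.75 ± 0.25 SE, adjusted p = 2.64e-05). H2bc4 (chromosome 13, 23684199 to 23692908, plus strand) stood at 10.2, 8.36 and 10.9 CPM in Unstimulated and 3.25, 3.25 and 3.75 CPM in CD3. H2bu2 stood at 4.22, 3.39 and 4.47 CPM in Unstimulated and 0.614, 1.59 and 1.81 CPM in CD3. Both were without overlap, with log2 changes of -1.29 ± 0.21 (SE; adjusted p = 8.24e-05) for H2bc4 and -1.14 ± 0.21 (SE; adjusted p = 3.16e-04) for H2bu2.

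H3 was the type with 9 of 11 genes higher (81.8%, against 33.5% of all genes) and 0 lower. Without Unstimulated replicate 3 the H3 counts were 7 higher (63.6%, against 30.6%) and 0 lower. H3c3 (chromosome 13, 23744973 to 23745602, minus strand) stood at 0.181, 0.0364 and 0.316 CPM in Unstimulated and at 3.65, 5.51 and 4.76 CPM in CD3 (log2 change 2.25 ± 0.21 SE, adjusted p = 2.77e-07). H3c6 stood at 0.178, 0.0729 and 0.900 CPM in Unstimulated and at 2.49, 2.71 and 2.81 CPM in CD3, a log2 change of 1.45 ± 0.24 (SE; adjusted p = 9.97e-05). H3c2 rose by 1.51 and H3c1 by 1.10. H3c8 was at 0 in all 3 Unstimulated libraries and averaged 1.12 CPM in CD3, so no fold is given for it. The replacement gene H3f3b, by contrast, stood at 258 ± 11.6 CPM (SD, n = 3) in Unstimulated and 259 ± 25.9 in CD3 (log2 change 0.00 ± 0.09 SE, adjusted p = 0.979).

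H4 had 5 of 12 genes higher (41.7%, against 33.5% of all genes) and 0 lower. These H4 counts rested on single libraries. Without Unstimulated replicate 3 they were 2 higher (16.7%, against 30.6%) and 0 lower. Without CD3_CD28 replicate 1, which enters this fit through the shared spread, they were 8 higher (66.7%, against 33.7%) and 2 lower. H4c9, with the highest mean CPM of the type, stood at 3.71, 3.43 and 1.94 CPM in Unstimulated and at 3.89, 6.72 and 5.63 CPM in CD3, with a log2 change of 0.68 ± 0.26 (SE; adjusted p = 0.0347). The groups were close, and without Unstimulated replicate 3 the H4c9 change was 0.47 with an adjusted p of 0.157. H4c4 stood at 0.622, 1.57 and 1.35 CPM in Unstimulated and at 2.19, 2.85 and 4.07 in CD3, apart in every library, but did not pass the test. Hist1h4n had 2.42, 1.34 and 1.52 CPM in Unstimulated and 1.49, 2.20 and 1.22 CPM in CD3, with overlap.

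The linker genes split in the same way, with 4 of 5 higher, against 33.5% of all genes, and H1f2 lower. H1f5 stood at 0.178, 0.364 and 0.174 CPM in Unstimulated and at 2.37, 3.34 and 3.58 CPM in CD3 (log2 change 1.72 ± 0.24 SE, adjusted p = 2.31e-05). H1f1 rose by 1.59. H1f3 stood at 2.00, 2.66 and 1.91 CPM in Unstimulated and at 5.88, 5.48 and 5.60 CPM in CD3, and H1f4 at 3.80, 4.08 and 5.82 CPM against 6.75, 7.59 and 12.03 CPM. Their log2 changes were 1.07 ± 0.27 (SE; adjusted p = 0.00319) for H1f3 and 0.79 ± 0.24 (SE; adjusted p = 0.0104) for H1f4.

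H1f2 (chromosome 13, 23738808 to 23740367, plus strand) encodes the linker histone H1.2. It stood at 28.8, 24.2 and 123 CPM in Unstimulated replicates 1 to 3, at 6.67, 6.94 and 9.0 in CD3, at 12.3, 3.67 and 3.765 in CD3_CD28 and at 6.655, 9.27 and 6.34 in CD3_CD28_ICOS. Every Unstimulated library was above every stimulated one, and Unstimulated replicate 3 was far above the other members of its group. The log2 change in CD3 against Unstimulated was -2.42 ± 0.58 (SE; adjusted p = 0.00351), and without Unstimulated replicate 3 it was -1.69 (adjusted p = 0.00207). Per kilobase H1f2 had 37.5 CPM in Unstimulated and 4.83 in CD3.

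**Figure D3:**
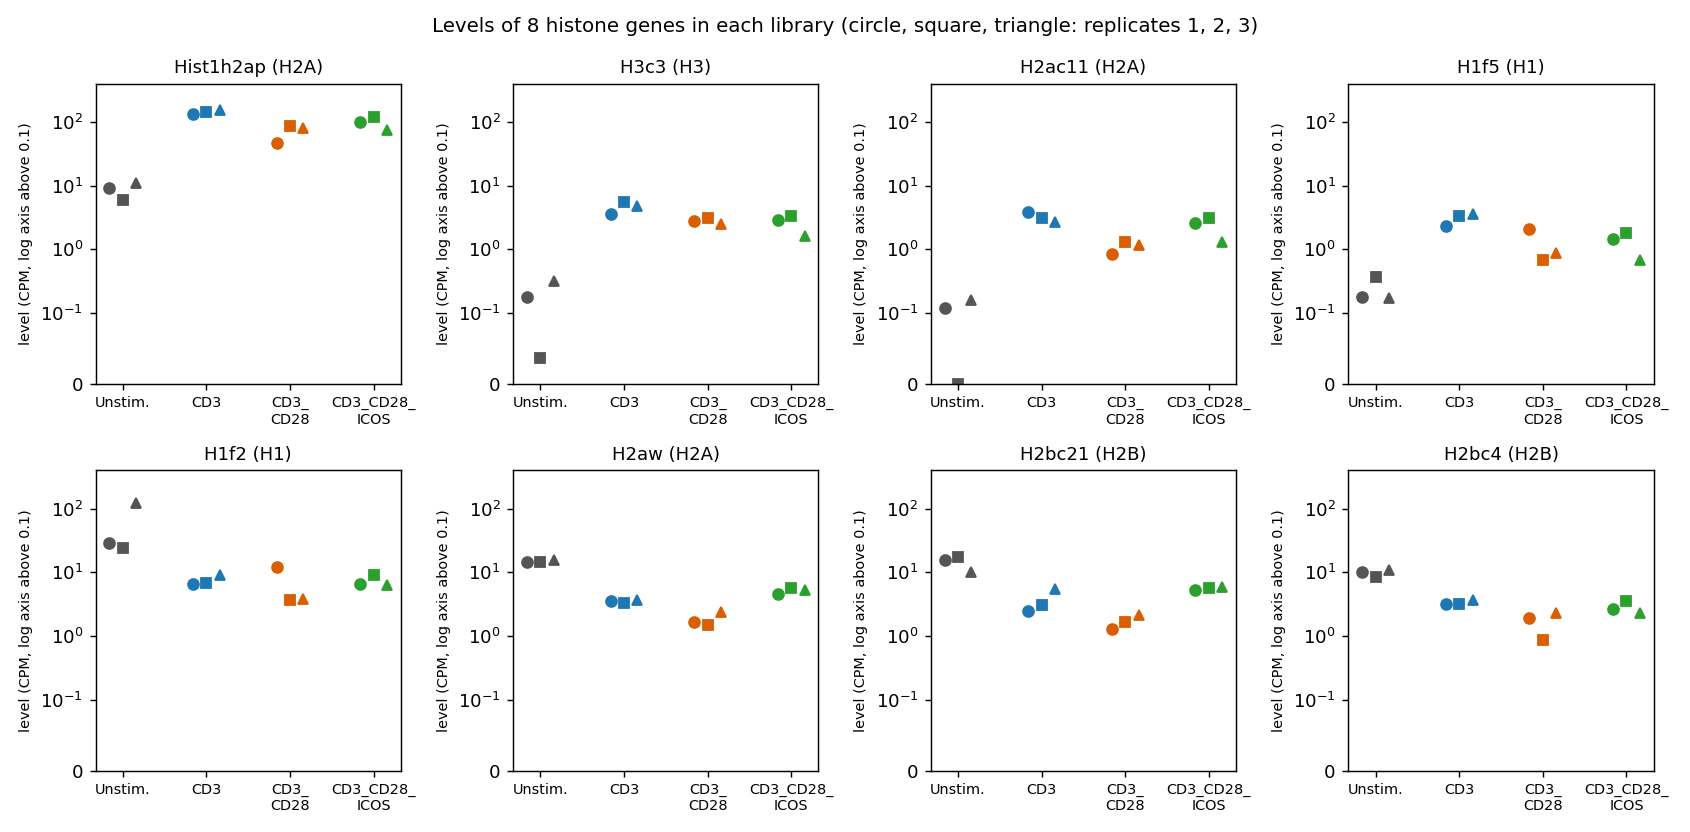
CPM of 8 histone genes in each of the 12 libraries, on an axis that is linear near 0 and logarithmic above. Hist1h2ap, H3c3, H2ac11 and H1f5 are higher in every CD3 library than in any Unstimulated one, and H1f2, H2aw, H2bc21 and H2bc4 are lower.

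The calls were also counted by the annotated length of the message after the stop codon, in the coding transcript where it was longest. The limit of 150 annotated bases after the stop codon used here was chosen after the values were seen, and the counts are a description with no test. Of 35 members with fewer, 22 rose under CD3 and 1 fell, and of 26 members with 150 or more, 10 rose and 5 fell. The shorter group includes members with 0 annotated bases there, among them H1f5, H2ac13, H2bc15, H3c10, H3c11 and H4c12. For these the annotation ends at the stop codon, which does not show that the message is short. Counts without such members were not made. H2bu1-ps has no annotated stop codon and is in neither group. Of all genes, 33.5% rose and 26.0% fell in this comparison. Without Unstimulated replicate 3 the shorter ones gave 19 and 0 and the longer ones 7 and 5, against 30.6% and 26.0%. In CD3_CD28 against Unstimulated the shorter ones gave 14 higher and 2 lower, and the longer ones 2 higher and 6 lower, where 28.5% of all genes rose and 38.3% fell. Without CD3_CD28 replicate 1 these counts were 8 and 3 for the shorter ones and 2 and 8 for the longer ones, and without Unstimulated replicate 3 as well they were 5 and 3, and 1 and 8. In CD3_CD28_ICOS against Unstimulated the shorter ones gave 14 and 0, and the longer ones 2 and 7, against 27.4% and 21.8% of all genes. All 3 comparisons share the Unstimulated libraries.

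Myeloid, erythroid and pancreatic marker sums were also highest in Unstimulated cells. B cell and CD8 T cell marker sums were not: they averaged 136 and 32.7 CPM in Unstimulated and 330 and 53.4 CPM in CD3_CD28_ICOS. The sum of 6 myeloid markers was 144 to 386 CPM in Unstimulated libraries and 0.895 to 12.7 CPM in stimulated ones. The sum of 6 erythroid markers was 102 to 181 CPM in Unstimulated and 0.351 to 2.11 in stimulated libraries. The sum of 9 pancreatic enzyme genes was 324 to 1702 CPM in Unstimulated and 0.320 to 1.63 in stimulated libraries, with Cpa1, Ctrb1 and Amy2b at 0 in all stimulated libraries. All 5 tested myeloid, 3 tested erythroid and 8 tested pancreatic genes fell in CD3 against Unstimulated. Their part in the fall of H1f2, H2aw, H2bc21, H2bc4 and H2bu2 was not tested.

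CD3_CD28 against Unstimulated held fewer rises. Hist1h2ap (log2 change 2.88 ± 0.25 SE, adjusted p = 3.66e-07) and H3c3 (1.70 ± 0.21 SE, adjusted p = 4.00e-06) were again the genes with the largest rise, and H1f2 and H2aw those with the largest fall. At 10 CPM or more 1 gene rose and 3 fell, against 36.1% and 39.1% of genes tested, and the 3 are again those that passed the filter through Unstimulated. With every gene kept, 16 of the 62 rose and 8 fell, against 28.5% and 38.3% of all genes, so the share that rose was near the background and the share that fell was under it. Without CD3_CD28 replicate 1 the counts were 10 and 12, against 28.7% and 34.3%, and without Unstimulated replicate 3 as well they were 6 and 11, against 27.3% and 34.8%. By values alone 21 genes lay higher and 8 lower without overlap, against 30.1% and 40.5%.

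H2aw fell to 1.67, 1.52 and 2.37 CPM in CD3_CD28 (log2 change -2.51 ± 0.17 SE, adjusted p = 1.22e-08), and H1f2 had a log2 change of -2.76 ± 0.58 (SE; adjusted p = 0.0013). H2bc21 stood at 1.28, 1.66 and 2.16 CPM there (-2.50 ± 0.25 SE, adjusted p = 5.97e-07) and H2bc4 at 1.94, 0.882 and 2.29 (-2.03 ± 0.21 SE, adjusted p = 6.19e-07). H2bu2, H2ac18, H2ac20 and H2ac6 fell by less, the last 2 from means of 1.15 and 1.48 CPM to 0.340 and 0.559. The rises of H1f5 (0.78 on the log2 scale), H2bc11 (0.92), H2bc3 (1.02) and H4c2 (0.61) lost their call without CD3_CD28 replicate 1, with adjusted p of 0.0642 for H1f5, 0.056 for H2bc11, 0.0866 for H2bc3 and 0.078 for H4c2. H2bc3 shows how 1 library set such a mean: it stood at 4.08, 0.555 and 0.756 CPM in the CD3_CD28 libraries.

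CD3_CD28_ICOS against Unstimulated gave a similar number of calls. At 10 CPM or more Hist1h2ap rose and 3 genes fell, against 35.6% and 23.7% of genes tested, with the same limit on the 3 that fell. With every gene kept, 16 of 62 rose and 7 fell, against 27.4% and 21.8%. The share that rose was near the background, and the share that fell was under it. Without Unstimulated replicate 3 the counts were 17 and 6, against 24.7% and 21.9%. Without overlap, 20 lay higher and 9 lower, against 31.6% and 24.6%. Calls were 7 higher and 1 lower of 16 for H2A, 3 and 3 of 18 for H2B, 5 and 0 of 11 for H3, 1 and 1 of 5 for H1, and 0 and 2 of 12 for H4.

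Hist1h2ap had a log2 change of 3.33 ± 0.25 (SE; adjusted p = 2.37e-07) in CD3_CD28_ICOS against Unstimulated. H3c3 stood at 2.85, 3.36 and 1.61 CPM there (1.59 ± 0.21 SE, adjusted p = 1.73e-05), and H2ac11 at 2.56, 3.16 and 1.28 CPM (1.57 ± 0.21 SE, adjusted p = 2.64e-05). H1f2 (-2.44 ± 0.58 SE, adjusted p = 0.00416), H2bc4 (-1.49 ± 0.21 SE, adjusted p = 3.20e-05), H2aw (-1.39 ± 0.17 SE, adjusted p = 9.54e-06) and H2bc21 (-1.18 ± 0.25 SE, adjusted p = 0.00108) fell. The H4 genes H4f16 and H4c14 fell from 0.692 and 0.869 CPM to 0.115 and 0.224.

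CD3_CD28 against CD3 asks what soluble anti-CD28 added. No histone gene rose, and those that fell included Hist1h2ap, H2bc11 and H1f1. At 10 CPM or more 0 of 4 rose and 3 fell, against 18.7% and 45.7% of genes tested. With every gene kept, 0 of 62 rose and 17 fell, against 14.2% and 34.0% of all genes. The share that fell was under the background with all libraries and above it without CD3_CD28 replicate 1. The median log2 change was -0.23 over the 62 and -0.17 over all genes, and without that library -0.477 and -0.14. By type the genes that fell were 2 of 5 for H1, 5 of 16 for H2A, 6 of 18 for H2B, 4 of 11 for H3 and 0 of 12 for H4. Without overlap 0 lay higher and 17 lower, against 17.6% and 41.5%. Without CD3_CD28 replicate 1 the number that fell was 25, or 40.3%, against 27.6% of all genes: 3 for H1, 6 for H2A, 7 for H2B, 5 for H3 and 4 for H4. The absence of H4 calls thus rested on that library, and without both libraries that stood apart it was 28, or 45.2%, against 28.9%.

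Hist1h2ap was lower in every CD3_CD28 library than in any CD3 one, with a log2 change of -1.05 ± 0.25 (SE; adjusted p = 0.00278), and of -0.79 without CD3_CD28 replicate 1 (adjusted p = 0.0103). H2bc11 fell from 4.38 to 1.18 CPM on average (-1.29 ± 0.28 SE, adjusted p = 0.00182). H1f1 stood at 2.72, 3.26 and 4.48 CPM in CD3 and at 1.71, 0.761 and 0.941 CPM in CD3_CD28 (-1.08 ± 0.22 SE, adjusted p = 0.00111). H2ac10 had 1.29, 1.14 and 1.34 CPM in CD3 and 0.380, 0.172 and 0.187 CPM in CD3_CD28. All 3 genes were without overlap. For H3c3, which fell by 0.55 on the log2 scale, the call was lost without CD3_CD28 replicate 1 (adjusted p = 0.0795).

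H2aw (-0.68 ± 0.17 SE, adjusted p = 0.00349) and H2bc21 (-0.75 ± 0.25 SE, adjusted p = 0.0174) were also lower in CD3_CD28 than in CD3 in all libraries. Their direction depended on scaling: under quantile normalization the log2 changes were 0.14 for H2aw and 0.08 for H2bc21, neither called. The H2bc21 call was also lost without CD3 replicate 3 (adjusted p = 0.0995) or without CD3_CD28 replicate 1 (adjusted p = 0.0663). Scaling by median of ratios moved the median change of all genes tested by 0.21 on the log2 scale in this comparison. H1f2 did not pass the test (-0.35 ± 0.58 SE, adjusted p = 0.615).

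The sum of 5 B cell markers also differed between these groups, with 6.4 to 8.53 CPM in CD3_CD28 libraries against 214 to 456 CPM in CD3 libraries. CD3_CD28_ICOS libraries had 157 to 451 CPM and Unstimulated ones 93.8 to 169. None of the 5 was at 0 in a whole group. All 5 fell in CD3_CD28 against CD3 and rose in CD3_CD28_ICOS against CD3_CD28. The myeloid marker Lyz2 was at 0 in all CD3_CD28 libraries. Their part in the differences of histone genes between the stimulated groups was not tested.

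**Figure D4:**
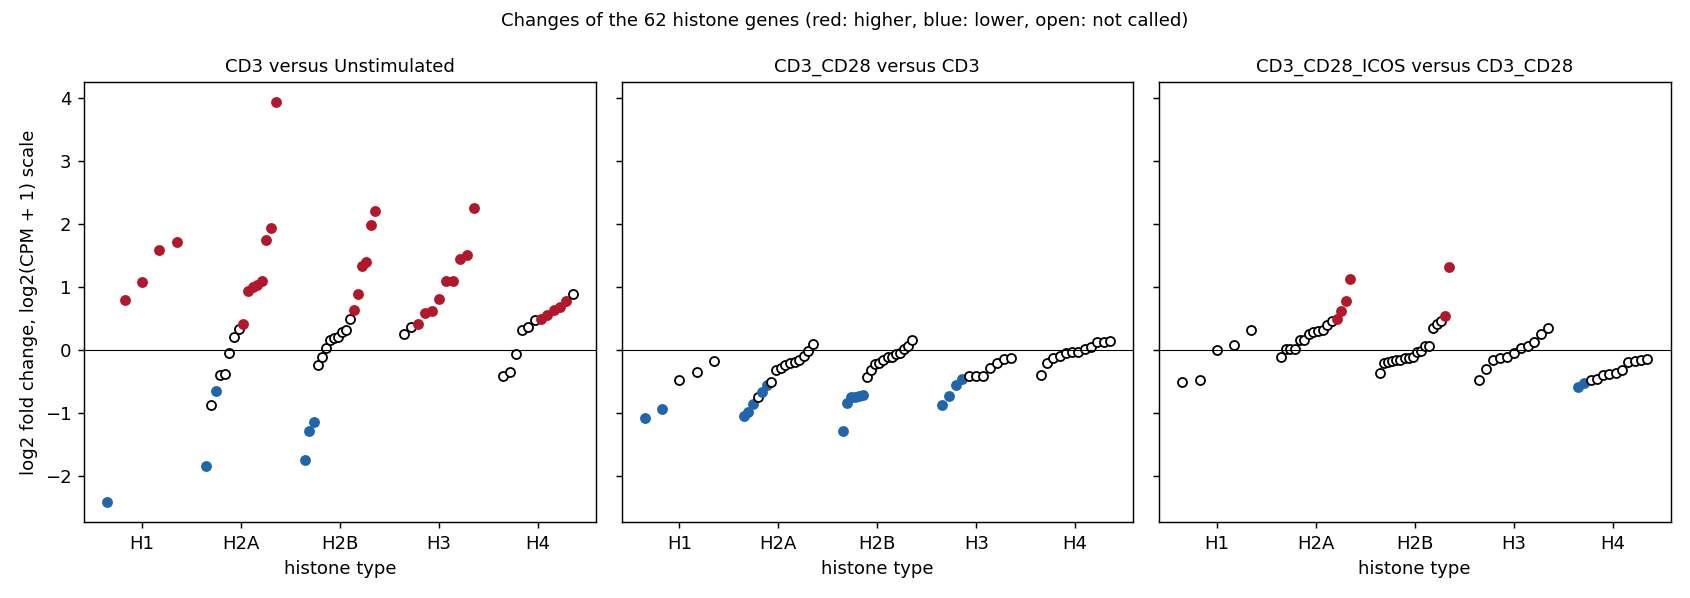
Log2 change, on log2(CPM + 1), of each of the 62 genes by histone type for 3 comparisons, named above the panels (CD3 against Unstimulated, then CD3_CD28 against CD3, then CD3_CD28_ICOS against CD3_CD28), ordered within a type, with filled red for called higher, filled blue for called lower and open for not called. Calls run both ways in the first (32 higher, 6 lower), only downward in CD3_CD28 against CD3 (17 lower), and are few in CD3_CD28_ICOS against CD3_CD28 (6 higher, 2 lower). The panels share libraries with their neighbours.

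CD3_CD28_ICOS against CD3_CD28 had the fewest calls of the 6 comparisons when every gene was kept. At 10 CPM or more 2 genes rose and 0 fell, against 38.5% and 24.5% of genes tested. With every gene kept, 6 of 62 rose and 2 fell, against 32.3% and 18.6%, so both shares were under the background. Without overlap 7 lay higher and 3 lower, against 38.3% and 20.3%. Without CD3_CD28 replicate 1 the counts were 4 and 0, against 27.0% and 18.5%. The genes that rose were 4 for H2A and 2 for H2B, and both that fell were H4 genes.

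H2bc21 stood at 5.36, 5.76 and 5.96 CPM in CD3_CD28_ICOS, above all CD3_CD28 libraries, with a log2 change of 1.32 ± 0.25 (SE; adjusted p = 4.10e-04). H2aw stood at 4.58, 5.65 and 5.25 CPM there, also without overlap (1.12 ± 0.17 SE, adjusted p = 6.70e-05). H2bc4 rose by 0.54, H2ac10 by 0.78, H2ac11 by 0.62 and H2ac8 by 0.48 on the log2 scale. H2ac10 had 1.38, 1.00 and 1.04 CPM in CD3_CD28_ICOS, near its CD3 values. Hist1h2ap did not pass the test (0.46 ± 0.25 SE, adjusted p = 0.124), and its groups overlapped. Hist1h4n fell by 0.59 (adjusted p = 0.0441) and H4c2 by 0.53 (adjusted p = 0.0346), and both calls were lost without CD3_CD28 replicate 1, at adjusted p of 0.223 for Hist1h4n and 0.179 for H4c2. H2ac11 lost its call without the same library (adjusted p = 0.093).

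In CD3_CD28_ICOS against CD3 nearly all calls on histone genes were lower. At 10 CPM or more 1 gene, H2aw, rose and 0 fell, against 18.9% and 28.7% of genes tested. With every gene kept, 1 of 62 rose and 13 fell, against 13.3% and 19.1%, and the median log2 change was -0.34, against -0.01 over all genes. The share that fell was near the background. Without overlap 1 lay higher and 23 lower, against 20.5% and 25.6%. Those called lower were 4 of 5 for H1, 0 of 16 for H2A, 4 of 18 for H2B, 5 of 11 for H3 and 0 of 12 for H4. The number of calls in both directions rested on single libraries, at 3 without CD3_CD28_ICOS replicate 3 and 18 without CD3_CD28 replicate 1, where 3 H4 genes and 1 H2A gene were among those called lower.

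H1f1 stood at 0.986, 1.42 and 0.917 CPM in CD3_CD28_ICOS, below all CD3 libraries (-1.08 ± 0.22 SE, adjusted p = 0.0018). H1f3 stood at 2.14, 3.66 and 1.73 CPM (-0.96 ± 0.27 SE, adjusted p = 0.0127), and H1f5 fell by 0.85 and H1f4 by 0.69. H3c15 fell from 1.70 to 0.449 CPM (-0.90 ± 0.22 SE, adjusted p = 0.00614). Hist1h2ap was lower in every CD3_CD28_ICOS library than in any CD3 one but did not pass the test (-0.60 ± 0.25 SE, adjusted p = 0.0644). The rise of H2aw was small (0.44 ± 0.17 SE, adjusted p = 0.0458), and it was lost with a pseudocount of 0.1 CPM (adjusted p = 0.0627), with fits of only the 6 libraries compared (adjusted p = 0.057) and with the replicate block (adjusted p = 0.0563). It was also lost when any of several single libraries was left out, with an adjusted p of up to 0.131 without CD3 replicate 2.

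Genes that act in S phase, where histone supply is coupled to DNA synthesis, were set beside the histone genes. Of 35 such genes, all tested, 35 rose in CD3 against Unstimulated, 35 fell in CD3_CD28 against CD3 and 34 fell in CD3_CD28_ICOS against CD3. Against Unstimulated 30 rose in CD3_CD28 and 32 in CD3_CD28_ICOS, with 0 lower. In CD3_CD28_ICOS against CD3_CD28, 4 rose and 3 fell, both under the 38.5% and 24.5% of all genes tested. The shares of all genes tested that rose and fell were 43.6% and 26.3% in CD3, 36.1% and 39.1% in CD3_CD28 and 35.6% and 23.7% in CD3_CD28_ICOS, each against Unstimulated. Against CD3 they were 18.7% and 45.7% in CD3_CD28 and 18.9% and 28.7% in CD3_CD28_ICOS. The median log2 change was 2.63 in CD3 against Unstimulated and -1.11 in CD3_CD28 against CD3, beside 0.18 and -0.24 over all genes tested. Mcm6, a subunit of the replicative helicase, averaged 110 ± 6.93 CPM (SD, n = 3) in Unstimulated, 734 ± 25.2 in CD3, 342 ± 50.1 in CD3_CD28 and 256 ± 61.9 in CD3_CD28_ICOS. Rrm1, the large subunit of ribonucleotide reductase, averaged 53.4, 504, 199.8 and 223 CPM in the same order. Mcm3 and Mcm4, also of the helicase, rose by 2.57 and 1.74 on the log2 scale under CD3.

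The summed level of the 62 histone genes divided by that of the 35 S-phase genes ranged from 0.11 to 0.209 in Unstimulated libraries and from 0.0424 to 0.0476 in CD3 ones. It ranged from 0.0459 to 0.078 in CD3_CD28 and from 0.0553 to 0.0842 in CD3_CD28_ICOS. The 0.078 belongs to CD3_CD28 replicate 1, and replicates 2 and 3 had 0.0502 and 0.0459, below every CD3_CD28_ICOS library. The ratio was highest in Unstimulated cells. The S-phase sum, by which the ratio divides, was lowest there, so this order says little about the histone genes alone. For Hist1h2ap alone it ran the other way, from 0.00589 to 0.0106 in Unstimulated libraries up to 0.0236 to 0.026 in CD3 libraries. The CD3_CD28 libraries had 0.0224 to 0.0305 and the CD3_CD28_ICOS libraries 0.0311 to 0.0469.

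Replacement histones, a list that includes the variant gene H2ax, were set beside the replication-dependent genes. Which ends their messages had in these cells was not examined. Of 9 tested, 6 rose and 0 fell under CD3, 5 rose and 3 fell in CD3_CD28 against Unstimulated, and 6 rose and 2 fell in CD3_CD28_ICOS against Unstimulated. Against CD3, 0 rose and 8 fell in CD3_CD28 and 0 rose and 3 fell in CD3_CD28_ICOS. In CD3_CD28_ICOS against CD3_CD28, 5 rose and 0 fell. In CD3_CD28 against Unstimulated these counts lie beside 36.1% of all genes tested higher and 39.1% lower, and with 9 genes a share moves by much with 1 gene. Under CD3 the background was 43.6% higher and 26.3% lower, and in CD3_CD28_ICOS against Unstimulated 35.6% and 23.7%. Against CD3 the background of falls was 45.7% in CD3_CD28 and 28.7% in CD3_CD28_ICOS. The background was 38.5% higher and 24.5% lower in CD3_CD28_ICOS against CD3_CD28. H2ax, the H2A variant phosphorylated at DNA breaks, stood at 38.6, 39.8 and 39.4 CPM in Unstimulated and at 138, 159 and 153 in CD3, and averaged 71.7 ± 18.5 CPM (SD, n = 3) in CD3_CD28 and 112 ± 19.8 in CD3_CD28_ICOS. Its log2 change was 1.91 ± 0.17 (SE; adjusted p = 4.12e-07) in CD3 against Unstimulated and -1.09 ± 0.17 (SE; adjusted p = 1.34e-04) in CD3_CD28 against CD3. Macroh2a1, a macroH2A variant, rose by 0.83 under CD3 (± 0.09 SE, adjusted p = 1.99e-06). H3f3a and H3f3b, both for H3.3, did not pass the test under CD3 and fell in CD3_CD28 against CD3 by 0.95 and 0.76 on the log2 scale.

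Genes for histone message synthesis, 3-prime processing and turnover numbered 16, all tested. Under CD3 9 rose and 1 fell, and in CD3_CD28 and CD3_CD28_ICOS against Unstimulated 6 rose and 7 fell, and 3 rose and 4 fell. Against CD3, 1 rose and 10 fell in CD3_CD28 and 1 rose and 12 fell in CD3_CD28_ICOS, and CD3_CD28_ICOS against CD3_CD28 gave 7 and 4. In CD3_CD28 against Unstimulated these shares are near the 36.1% and 39.1% of all genes tested, and in CD3_CD28_ICOS against CD3_CD28 near 38.5% and 24.5%. Under CD3 the background was 43.6% higher and 26.3% lower, and in CD3_CD28_ICOS against Unstimulated it was 35.6% and 23.7%. Against CD3 it was 18.7% and 45.7% in CD3_CD28, and 18.9% and 28.7% in CD3_CD28_ICOS. Sympk, the scaffold of the cleavage complex, rose by 0.49 under CD3, and Srrt, which joins cap-binding complex to processing, by 0.67. Ncbp1, the large cap-binding subunit, did not pass the test (0.13, adjusted p = 0.344). Tut7, a uridyl transferase known for histone message decay, was the 1 gene that fell (-0.48 ± 0.08 SE, adjusted p = 7.35e-05), and Lsm10, of the U7 particle, the 1 that rose in CD3_CD28 against CD3 (0.35 ± 0.11 SE, adjusted p = 0.0144). Slbp, the stem-loop binding protein gene, was picked out after its values were seen. It averaged 40.8 ± 1.29 CPM (SD, n = 3) in Unstimulated, 142 ± 18.5 in CD3, 63.6 ± 7.87 in CD3_CD28 and 81.8 ± 8.98 in CD3_CD28_ICOS, and rose by 1.77 ± 0.12 (SE; adjusted p = 1.33e-08) under CD3.

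Histone chaperones, which carry new histones to chromatin, numbered 20. Under CD3 15 rose and 1 fell, and against CD3, 0 rose and 18 fell in CD3_CD28 and 1 rose and 13 fell in CD3_CD28_ICOS. Against Unstimulated, 9 rose and 7 fell in CD3_CD28 and 10 rose and 2 fell in CD3_CD28_ICOS, and CD3_CD28_ICOS against CD3_CD28 gave 7 and 3. The counts in CD3_CD28 against Unstimulated are near the 36.1% and 39.1% of all genes tested, and those in CD3_CD28_ICOS against CD3_CD28 lie beside 38.5% and 24.5%. In CD3_CD28 against CD3 the background was 18.7% higher and 45.7% lower, and under CD3 it was 43.6% and 26.3%. It was 35.6% and 23.7% in CD3_CD28_ICOS against Unstimulated, and 18.9% and 28.7% in CD3_CD28_ICOS against CD3. Ssrp1, a subunit of the FACT complex, rose by 0.91 under CD3, Rbbp4 by 0.48, Atrx by 0.28 and Hjurp, which deposits the centromeric histone, by 1.70. Nap1l4 fell by 0.29 (± 0.07 SE, adjusted p = 0.00286). Atrx was the 1 chaperone higher in CD3_CD28_ICOS than in CD3 (0.31, adjusted p = 0.0157).

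The authors' deposited table of their own comparisons held fewer calls on these genes. At a false discovery rate under 0.05 the authors' deposited table gave 10 of 62 higher and 3 lower in CD3 against Unstimulated, where 16.9% and 9.16% of all genes with a value were called. The share that rose was thus near the background, whereas the limma fit with every gene kept called 32 of 62 higher, against 33.5%. For CD3_CD28 against Unstimulated the authors' deposited table gave 7 and 4 (15.9% and 16.9% of all genes), and for CD3_CD28_ICOS against Unstimulated 6 and 1 (12.4% and 5.73%). For CD3_CD28 against CD3 the authors' deposited table gave 0 and 1 (5.14% and 11.8%). In CD3_CD28_ICOS against CD3_CD28 the authors' deposited table had 0 and 0 (12.6% and 6.89%), and in CD3_CD28_ICOS against CD3 likewise 0 and 0 (4.07% and 4.6%).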

How the data were processed

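RNA sequencing values of 12 mouse CD4+ T cell libraries in 4 groups of 3 were used, grouped by the sample labels. The submitters' processing notes name Partek 10, DESeq2 and the build mm10. Not given in the sources used here are the aligner, counting tool, annotation, use of strand and RNA selection. The authors deposited CPM values with 1e-04 added to every cell, as the column sums showed, and the offset was removed. CPM carries no correction for length. A second deposited table holds the authors' p-values, as false discovery rates, and log2 ratios, per the file headers. Only counts of its calls are given. The 62 members, the gene lists and the tests were chosen with earlier results of these data known.

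Rows were matched by coordinates to GENCODE M21 (17022 of 17203 rows) to find older symbols. RefSeq synonyms gave the same 62 genes, and 8 of the annotation's 70 such genes were not among the rows and are not analysed here. Tests covered the 9826 genes that reached 10 CPM in 3 libraries or more, on log2(CPM + 1). It used limma 3.58.1 (R 4.3.3) with group means fitted to the 12 libraries together, trend and robust options on, two-sided p-values adjusted by Benjamini-Hochberg over the genes tested, and a threshold of 0.05. Adjusted p-values of H1f2, Hist1h2ap, H2aw and H2bc21 and of the listed genes come from this fit, and those of the other members from the same fit with no filter (17203 genes). The fit was tested on simulated data. Each SD is taken over a group's 3 libraries.

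Depth was estimated from the step of low CPM values. The best step of 1 library was a multiple, and a rule that allows 1/2 or 1/3 of the best depth was added after that value was seen. Among values no higher than 1.2 CPM, 76.0 to 80.8% per library lay within 0.02 of a whole number of steps over all genes, but only 99 of 420 histone values did (23.6%), so whole reads were not recovered and no count test was run. One read was worth 0.0267 to 0.0879 CPM, which limits genes under 1 CPM. Shared sequence was counted in windows of 50 bases of annotated exons. 0 columns were left unused.

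Any member could be named. Full values go to the 3 of each type with the highest mean CPM, to the 2 largest called rises and falls of each comparison and to members called against most, and of each list to the 4 with the highest mean and those called against most. Alternatives were another pseudocount, filters of 1 CPM and none, quantile and median-of-ratios scaling, CPM without the ribosomal RNA gene, a replicate block, fits of 6 libraries and leaving out each library. Fits with no filter under these alternatives, and without CD3_CD28 replicate 1 and Unstimulated replicate 3 together, were added after seeing the data.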

Additional observations from a re-analysis of the deposited data

How the results depend on the processing

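The number of histone genes called rested on the filter. For CD3, CD3_CD28 and CD3_CD28_ICOS against Unstimulated, CD3_CD28 against CD3, CD3_CD28_ICOS against CD3_CD28 and CD3_CD28_ICOS against CD3, it was 4, 4, 4, 3, 2 and 1 at 10 CPM, 31, 23, 19, 16, 7 and 12 at 1 CPM, and 38, 24, 23, 17, 8 and 14 with no filter, because more genes were tested. At 1 CPM 39 members passed, some only through the group where they were high. Quantile normalization left 1 call at 10 CPM and 7 with no filter in CD3_CD28 against CD3, and there turned H2aw to 0.137 and H2bc21 to 0.0826. In CD3_CD28_ICOS against CD3 the 10 CPM count was 0 with a pseudocount of 0.1 CPM, 3 under quantile normalization, 2 under median of ratios, 0 with the replicate block and 2 without both libraries that stood apart, and the count with no filter was 8 with a pseudocount of 0.1 CPM. With no filter, CD3_CD28 against CD3 had 28 calls without both libraries, and CD3_CD28_ICOS against CD3_CD28 had 3 in a fit of the 6 libraries compared, where quantile normalization gave 3 higher and 6 lower. For CD3_CD28 against Unstimulated quantile normalization gave 27 higher and 6 lower. The causes were not tested.

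Leaving out 1 library at a time gave 4 to 4 calls at 10 CPM in each comparison with Unstimulated, 2 to 3 in CD3_CD28 against CD3, 2 to 2 in CD3_CD28_ICOS against CD3_CD28 and 0 to 2 in CD3_CD28_ICOS against CD3. With no filter the ranges were 29 to 43, 21 to 27, 22 to 25, 12 to 25, 4 to 9 and 3 to 18 in the order above. For CD3_CD28_ICOS against CD3 the count was also 6 without CD3 replicate 3 and 8 without CD3 replicate 2, and for CD3_CD28_ICOS against CD3_CD28 it was 5 without CD3_CD28_ICOS replicate 1 or 2. Of called values of single members, 207 of 216 at 10 CPM and 1117 of 1272 with no filter kept their direction and call when 1 library was left out, and 0 changed direction. Same-numbered libraries correlated at -0.0998 to 0.408 in their deviations, and in no 2 groups was each pair over 0.1, so the numbers were not taken to pair the samples. CD3 and CD3_CD28_ICOS came closest, at 0.0879, 0.408 and 0.335. With the replicate block the counts with no filter were 37, 25, 23, 18, 7 and 13. Most members are under 1 CPM in most libraries, and at that depth a missing call does not show that a level stayed the same.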
